A study of Mus musculus with 12 samples.

Results

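Described here is the early response to X-rays in the libraries labelled p53 knockout: 2 libraries from mouse embryos collected 1 h after irradiation, set against 2 libraries from untreated embryos. These 4 of the 12 libraries of the series were chosen by their labels, and the members are all 15535 of 53647 gene IDs with a TPM (an abundance scaled to a fixed sum within a library) of at least 1 in at least 2 of the 12 libraries. All libraries were made from polyadenylated RNA of embryos at embryonic day 9.5, the stage at which the neural tube closes, the trunk lengthens and primitive blood circulates. The embryos labelled p53 -/- were taken 1 h or 3 h after their mothers received a total of 30 Gy at 5 Gy per minute, or were left untreated, and the embryos labelled p53 +/+ were treated in the same 3 ways, with 2 libraries in each group. The series title names 4 genes of arrest of the cell cycle by p53: Cdkn1a (p21), Ccng1, Fbxw7 and foxo3b, for which mouse Foxo3 is read here. The comparison at 1 h shows what each label's embryos had done soon after damage. The labels do not say how many embryos or litters stand behind a library, nor which part of the p53 gene was removed, so a p-value here reflects spread among libraries and not among litters.

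The transcription factor p53 is held at a low level by the ubiquitin ligase MDM2. DNA breaks activate the kinase ATM, which frees p53 from MDM2, and p53 then switches on genes that stop the cell cycle, genes that start cell death and genes, Mdm2 among them, that shut the response down again. Rapidly dividing embryonic tissue is known for a strong p53 response to radiation, and its neural tissue for p53-dependent cell death.

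The promoter windows of 5 p53 targets named below are shown because they hold the p53 half-site consensus. They were picked for that match, and the windows of Phlda3, Sesn2, Btg2, Plk2 and Bbc3, also named below, hold none. Each window runs from 250 bases before to 50 bases after an annotated start. The sequences are from RefSeq, build GRCm38.p6, an earlier build than the one the submitters name, and are written in the direction of transcription with each match to the half-site in capitals. Cdkn1a lies on the plus strand at chr17:29090729-29091028, around the upstream of its 2 annotated starts, Ccng1 on the minus strand at chr11:40755237-40755536, Mdm2 on the minus strand at chr10:117710709-117711008, Inka2 on the plus strand at chr3:105705208-105705507, around the downstream of its 2 annotated starts, and Ppm1d on the plus strand at chr11:85311004-85311303.
Cdkn1a: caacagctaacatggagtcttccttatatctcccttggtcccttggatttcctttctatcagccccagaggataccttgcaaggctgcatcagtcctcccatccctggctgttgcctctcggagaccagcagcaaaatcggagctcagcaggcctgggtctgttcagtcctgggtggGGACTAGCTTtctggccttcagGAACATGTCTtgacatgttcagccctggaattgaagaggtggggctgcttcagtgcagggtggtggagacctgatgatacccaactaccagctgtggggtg
Ccng1: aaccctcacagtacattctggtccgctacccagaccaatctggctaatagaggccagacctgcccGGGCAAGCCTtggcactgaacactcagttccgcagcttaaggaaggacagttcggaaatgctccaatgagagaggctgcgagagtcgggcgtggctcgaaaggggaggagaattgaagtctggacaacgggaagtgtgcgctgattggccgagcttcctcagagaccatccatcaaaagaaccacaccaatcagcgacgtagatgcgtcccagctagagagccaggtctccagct
Mdm2: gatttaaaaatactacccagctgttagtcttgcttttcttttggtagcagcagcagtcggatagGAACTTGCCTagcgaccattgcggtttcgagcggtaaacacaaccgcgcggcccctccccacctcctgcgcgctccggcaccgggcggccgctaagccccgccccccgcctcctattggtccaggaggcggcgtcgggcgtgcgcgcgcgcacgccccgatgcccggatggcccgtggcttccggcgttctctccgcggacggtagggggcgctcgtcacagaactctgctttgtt
Inka2: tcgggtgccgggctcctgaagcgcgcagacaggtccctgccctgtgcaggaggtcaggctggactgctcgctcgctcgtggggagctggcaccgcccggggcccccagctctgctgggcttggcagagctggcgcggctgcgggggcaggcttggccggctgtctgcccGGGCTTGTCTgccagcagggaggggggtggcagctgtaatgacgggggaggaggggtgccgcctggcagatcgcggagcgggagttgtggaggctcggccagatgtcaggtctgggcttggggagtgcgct
Ppm1d: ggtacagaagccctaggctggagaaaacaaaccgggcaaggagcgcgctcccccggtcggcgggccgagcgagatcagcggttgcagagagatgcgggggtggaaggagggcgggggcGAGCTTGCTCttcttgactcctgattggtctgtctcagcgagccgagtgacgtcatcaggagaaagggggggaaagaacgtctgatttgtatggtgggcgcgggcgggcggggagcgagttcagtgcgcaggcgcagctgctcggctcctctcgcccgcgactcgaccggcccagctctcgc
The 2 matches of the Cdkn1a window begin 73 and 51 bases before the start and stand close enough to form a full site, while the windows of the other annotated starts of Cdkn1a and Inka2 hold no match. The single matches begin 185 bases before the start in Ccng1, 186 in Mdm2, 81 in Inka2 and 132 in Ppm1d. A match is a run of letters and not a measured binding site.

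Trp53, the gene of p53, was read first because it checks the labels. It stood at 250.1 and 209.5 TPM in the 1 h libraries labelled knockout numbered 1 and 2, against 265 and 79.1 TPM in the untreated ones (log2 fold change 0.65, SE 0.54, limma adjusted p = 0.767). The 1 h libraries labelled wild type held 114 and 66.8 TPM, against 114 and 211 TPM in their untreated ones. Trp53 transcript was thus above the wild-type label in both 1 h libraries labelled knockout, which goes against the label, although TPM cannot show an allele that is transcribed without making protein. The rise of p53 targets described below, in the libraries labelled knockout, goes against the label as well. Groups are called by their labels throughout. Of the untreated libraries number 2 was the low one under the knockout label and the high one under the wild-type label. The untreated groups of the 2 labels thus overlapped in Trp53.

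TPM keeps no read depth, so depth is unknown and no counting error can be given. A library held between 13724 and 14357 genes at a TPM of 1 or more. On the first principal component of the 12 libraries, which held 34.7% of the variance, the 1 h libraries numbered 2 of both labels stood apart at 66.4 (knockout) and 67.9 (wild type), against -46.1 to 11.8 in the other 10. Ribosomal protein genes took 19.4% of TPM in the 1 h library labelled knockout numbered 2 and 13.83% in number 1, against 12.02% and 12.79% in the untreated ones. The 1 h and the untreated group labelled knockout each held 1 library with Xist, the transcript of the inactive X chromosome, and 1 with Y-linked transcripts, but with crossed numbers: Xist was at 46.7 TPM in the 1 h library numbered 1 and at 51.2 TPM in the untreated library numbered 2. Comparison within a number therefore sets embryos of unlike sex side by side. Both 1 h libraries labelled wild type held Y-linked transcripts and Xist at 0.01 TPM, and both 3 h libraries labelled knockout held Xist. Of 8 markers of maternal decidua 5 passed the filter, with a summed level of all 8 of 69.0 and 63.8 TPM in the 1 h libraries, against 77.4 and 72.2 TPM untreated; Prl8a2, Prlr and Pgr did not pass. Of 10 trophoblast markers 5 passed, with sums of 53.8 and 59.8 TPM at 1 h, against 82.2 and 36 TPM untreated, and Prl3d1, Prl2c2, Tpbpa, Gcm1 and Psg17 did not. The part of these tissues in the results was not tested.

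At 1 h 13 genes rose and 3 fell in the libraries labelled knockout. The genes that rose were 5 known targets of p53 (Cdkn1a, Phlda3, Sesn2, Pmaip1 and Inka2), 7 clustered Hox genes, which give cells their position along the body axis, and the unnamed gene model Gm37795. The genes that fell were Otx2, Fzd7 and Efnb2. These calls are 0.0837% (higher) and 0.0193% (lower) of the genes tested, by limma on log2(TPM + 1) at a Benjamini-Hochberg adjusted p under 0.05, and 1407 genes had an unadjusted p under 0.05, of which 365 were higher and 1042 lower. All fold changes are on that scale, which understates the change of genes with low values, and the median over all genes tested was -0.06. Of all genes tested 6708 had a positive fold change and 8794 (56.6%) a negative one. With the library number as a block, 39 genes (0.251%) were called higher and 103 (0.663%) lower, the 16 genes among them. The libraries of the groups did not overlap for 11.3% of all genes tested with 1 h above and for 20.3% with 1 h below. Otx2, Fzd7 and Efnb2 were not called with quantile normalization, and Fzd7 and Efnb2 were not called with median-of-ratios size factors. Fitted on the 4 libraries alone, without the other groups' spread, limma called 0 genes, and without any 1 library of the 12 the number of calls lay between 2 and 15.

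**Figure D1:**
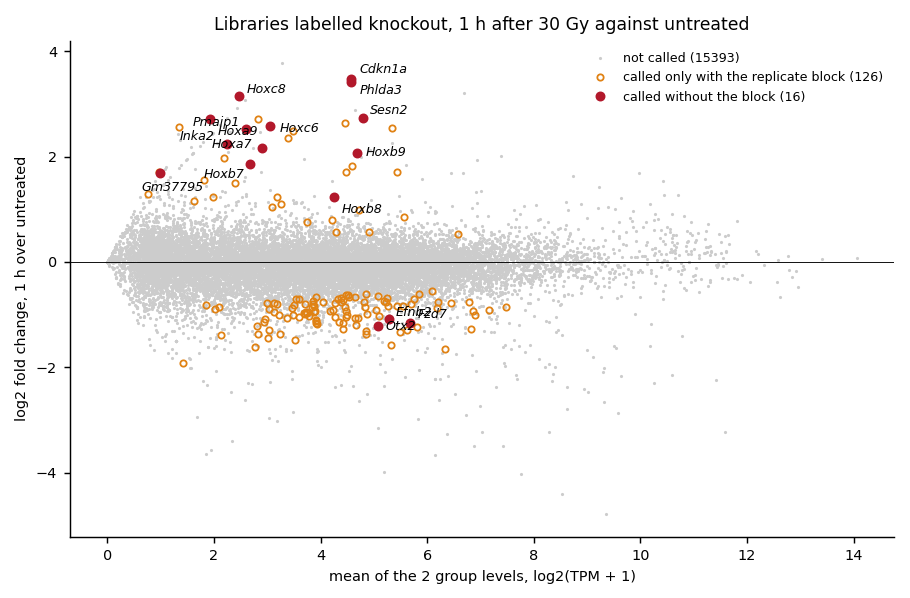
Each point is 1 of the 15535 genes tested, with the mean of its 2 group levels in log2(TPM + 1) on the x axis and its log2 fold change, 1 h over untreated in libraries labelled knockout, on the y axis. Filled red points are the 16 genes called without the replicate block, open orange points the 126 called with it only, and the called p53 targets and Hox genes sit at the top of the plot while most genes called only with the block lie below 0.

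Among p53 targets most calls at 1 h fell to genes of arrest and feedback. Of 20 listed genes of that kind 4 rose and none fell (10 and none with the replicate block), and their median log2 fold change was 0.73. Among all genes tested 0.0837% were called higher (0.251% with the block), with a median of -0.06. Of 15 targets of cell death 1 rose (3 with the block, median 0.46), and of 18 targets of repair and metabolism none did (1 with the block, median 0.26). Over all 53 listed targets the median was 0.46 and 42 had a positive fold change, against 6708 of all 15535 genes tested. Of the 53 targets 36 were called higher at 3 h than at 1 h, where 6.89% of all genes tested were called higher and 4.31% lower.

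Cdkn1a (ENSMUSG00000023067), the inhibitor of cyclin-dependent kinases that halts the cell cycle in G1, stood at 79.4 and 76.2 TPM in the 1 h libraries, against 6.88 and 5.38 TPM in the untreated ones. The groups lay far apart and the libraries of each were alike. The log2 fold change was 3.47 (SE 0.19, limma adjusted p = 0.000498), and it was 3.35 within number 1 and 3.60 within number 2. Cdkn1a was called without any single library, with adjusted p between 0.000717 and 0.013. It was at 499 and 444 TPM at 3 h, so the 1 h mean was 16.5% of the 3 h mean.

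Phlda3, whose product competes with the kinase AKT for the membrane, stood at 58.0 and 96.7 TPM at 1 h, against 7.05 and 5.26 TPM untreated. The groups did not overlap, and the 1 h library numbered 2 was the higher (log2 fold change 3.42, SE 0.42, limma adjusted p = 0.0286, lost without 10 of the 12 libraries in turn). Sesn2, a sestrin that restrains mTOR signalling under stress, stood at 63.8 and 77.9 TPM at 1 h, against 10.2 and 9.33 TPM untreated. Again both 1 h libraries were well above both untreated ones (2.74, SE 0.21, adjusted p = 0.00363), and the call was lost only without the untreated library numbered 2. Inka2, an inhibitor of the kinase PAK4 and one of the genes whose promoter is shown above, stood at 7.76 and 10.9 TPM at 1 h, against 1.36 and 0.98 TPM untreated (2.24, SE 0.25, adjusted p = 0.0202, lost without 8 of the 12).

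Of the other targets of arrest and feedback, 6 passed only with the replicate block. Ccng1, cyclin G1, named in the series title, stood at 73.5 and 120.2 TPM at 1 h, against 18.8 and 12.3 TPM untreated. Its groups did not overlap, but the pooled SE was wide (log2 fold change 2.55, SE 0.45), as the untreated libraries labelled wild type held 10.1 and 29.2 TPM. Btg2, an antiproliferative cofactor, stood at 35.3 and 73.1 TPM at 1 h, against 5.11 and 10.4 TPM untreated, with the number 2 library the higher in both groups. Trp53inp1, a nuclear cofactor of p53, stood at 17.7 and 34.4 TPM at 1 h, against 3.15 and 4.11 TPM untreated. Plk2, a polo-like kinase, stood at 66.1 and 86.9 TPM at 1 h, against 18.9 and 26.8 TPM untreated. Both genes were again higher in number 2 of each group, a difference that the block takes out.

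The feedback regulators of p53 itself had smaller fold changes. Mdm2 stood at 55.2 and 70.0 TPM at 1 h, against 34.9 and 33.1 TPM untreated (log2 fold change 0.85, SE 0.15). Ppm1d, the phosphatase WIP1 that resets damage signalling, stood at 35.9 and 35.0 TPM at 1 h, against 23.3 and 23.8 TPM untreated (0.57, SE 0.12). In both genes the groups did not overlap, and both passed with the block only. Mdm2 was already expressed before irradiation, and its 1 h mean was 20.9% of its 3 h mean of 299.6 TPM, whereas Ppm1d had reached 55.7%. The remaining listed regulators of arrest and feedback were not called in either fit, among them Mdm4, Gadd45a, Zmat3, Sesn1 and Ccng2.

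Among the targets of cell death, Pmaip1, which encodes the BH3-only protein NOXA, stood at 12.0 and 15.1 TPM at 1 h, against 1.88 and 1.23 TPM untreated. The groups did not overlap (log2 fold change 2.51, SE 0.27, limma adjusted p = 0.0202, lost without 8 of the 12 libraries in turn). Bbc3, which encodes the BH3-only protein PUMA, stood at 45.0 and 43.2 TPM at 1 h, against 12.0 and 11.7 TPM untreated (1.81, SE 0.26). It passed with the block only, although its libraries agreed closely within each group. The death receptor gene Tnfrsf10b stood at 11.7 and 14.3 TPM at 1 h, against 5.52 and 4.39 TPM untreated, and passed with the block only (1.23, SE 0.20). Eda2r, another receptor of that family, stood at 6.63 and 14.6 TPM at 1 h, against 1.83 and 0.39 TPM untreated, without a call in either fit (2.46, SE 0.58), and Fas at 0.81 and 1.47 TPM against 0.10 and 0.43 TPM (0.75, SE 0.32). Bax, the effector that opens the outer mitochondrial membrane, stood at 141 and 182 TPM at 1 h, against 109 and 104 TPM untreated, and was not called either (0.58). Bax, Eda2r and Fas do not overlap between the groups, and with Ddit4, Tap1 and Polk below they were singled out after their values were seen.

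Among targets of repair and metabolism the 1 gene called with the block was Rap2b, a RAS-related GTPase, at 14.6 and 18.4 TPM at 1 h, against 8.85 and 9.77 TPM untreated (log2 fold change 0.75, SE 0.18). Ddit4, which encodes the mTOR inhibitor REDD1, stood at 74.4 and 134 TPM at 1 h, against 36.5 and 29.8 TPM untreated, without a call (1.57). The peptide transporter gene Tap1 stood at 1.00 and 1.03 TPM at 1 h, against 0.44 and 0.34 TPM untreated, and Polk, a translesion polymerase, at 3.17 and 4.33 TPM against 5.58 and 5.51 TPM (-0.47). These 3 genes kept their groups apart too, Ddit4 and Tap1 higher and Polk lower at 1 h, at differences that did not pass.

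Genes outside the p53 lists were called higher with the block as well. Slc19a2, a thiamine transporter, stood at 16.5 and 29.2 TPM at 1 h, against 2.81 and 4.3 TPM untreated (log2 fold change 2.35). Ddit4l, a relative of Ddit4, stood at 14.4 and 19.9 TPM at 1 h, against 1.18 and 2.41 TPM untreated (2.72), and Ddias, an anti-apoptotic gene, at 26.3 and 52.9 TPM against 7.73 and 15.0 TPM (1.70). All 3 stayed apart between the groups, as all 39 genes called higher with the block did and as the naming rule required. They were higher in number 2 of each group. Gm37795, the gene model called in both fits, stood at 3.04 and 2.12 TPM at 1 h, against 0.13 and 0.07 TPM untreated (1.69, SE 0.19, limma adjusted p = 0.0202, lost without 10 of the 12 libraries in turn), and it was at 8.73 and 7.93 TPM at 3 h.

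**Figure D2:**
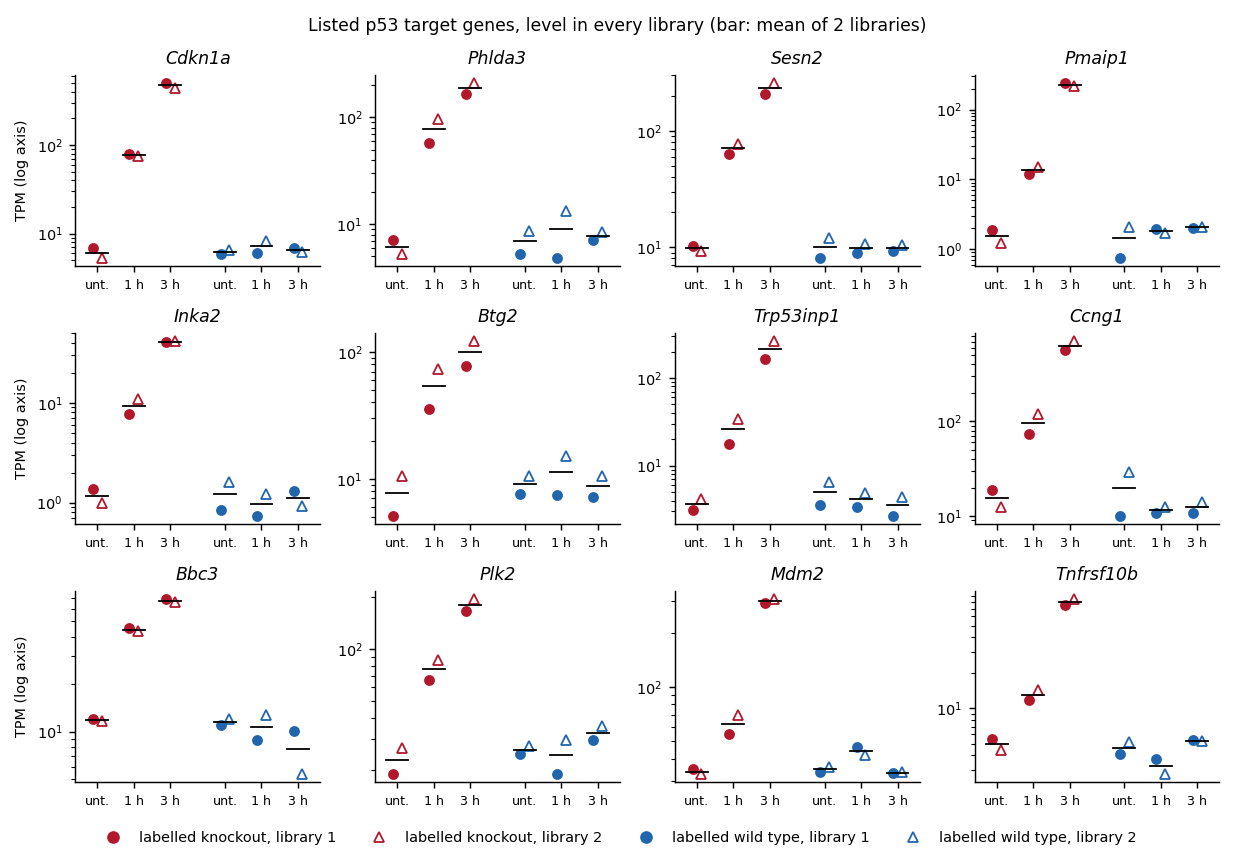
TPM on a log axis in every library for 12 listed p53 targets, with untreated, 1 h and 3 h libraries labelled knockout in red and those labelled wild type in blue, filled circles for number 1, open triangles for number 2 and bars for the mean of 2 libraries. In the libraries labelled knockout each gene is higher at 1 h than untreated and higher again in mean at 3 h, while for Cdkn1a the libraries labelled wild type stay between 5.91 and 8.36 TPM in the untreated and 1 h groups.

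The remaining title genes were not called. Foxo3, a forkhead transcription factor, stood at 6.55 and 10.5 TPM at 1 h, against 11.0 and 11.9 TPM untreated (log2 fold change -0.41, SE 0.23, limma adjusted p = 0.663). Fbxw7, the substrate receptor of an SCF ubiquitin ligase, stood at 14.2 and 13.1 TPM at 1 h, against 13.9 and 12.9 TPM untreated (0.02, SE 0.18, adjusted p = 0.99). The 3 h libraries held 41.5 and 53.5 TPM of Foxo3 and 46.9 and 47.4 TPM of Fbxw7. The 4 title genes thus differed at 1 h: Cdkn1a was called, Ccng1 passed with the block only, and Foxo3 and Fbxw7 were called in neither fit.

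The 1 h levels of p53 targets stood at different shares of their 3 h levels. Given as the 1 h mean in percent of the 3 h mean in TPM, Bbc3 was at 65.5%, Btg2 at 54.3%, Plk2 at 42.5% and Phlda3 at 41.2%. Sesn2 was at 30.6%, Inka2 at 22.8%, Tnfrsf10b at 16.4%, Ccng1 at 15.3% and Trp53inp1 at 12.2%. Pmaip1 was at 5.96%, Fas at 2.56% and Tap1 at 2.13%. Between 3 h and 1 h, Phlda3, Btg2 and Bbc3 were not called (limma adjusted p = 0.0885, 0.276 and 0.19); with the block Phlda3 and Btg2 were called (0.0201 and 0.00571) and Bbc3 was not (0.109). The change of Pmaip1 was called without the block (log2 fold change 3.98, SE 0.27, adjusted p = 8.1e-05). The 1 h libraries serve both comparisons, so the values are given side by side only.

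Posterior Hox genes, which are switched on in turn as the trunk and tail are laid down, made the other group of rises. Of 13 tested members of 18 listed, 5 rose (7 with the block) and none fell, with a median log2 fold change of 1.79 and all 13 positive. Among all genes tested 0.0837% were called higher (0.251% with the block), with a median of -0.06, and 6708 of 15535 were positive. Of 15 anterior Hox genes none was called in either fit (median 0.16). Over all 33 tested Hox genes 7 rose (10 with the block), with a median of 0.80.

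Hoxc8 stood at 15.4 and 15.7 TPM at 1 h, against 0.90 and 0.83 TPM untreated. The libraries of each group were nearly equal and the groups far apart (log2 fold change 3.15, SE 0.26, limma adjusted p = 0.00421), but the call was lost without any 1 of these 4 libraries. Hoxc6 stood at 18.5 and 20.1 TPM at 1 h, against 2.26 and 2.56 TPM untreated (2.57, SE 0.17, adjusted p = 0.0012). It kept its call without any single library. Hoxa9 stood at 8.91 and 8.16 TPM at 1 h, against 0.03 and 1.04 TPM untreated (2.72, SE 0.34, adjusted p = 0.0286, lost without 10 of the 12 libraries in turn). Hoxb9 stood at 45.4 and 58.2 TPM at 1 h, against 10.6 and 12.3 TPM untreated (2.08, SE 0.21, adjusted p = 0.0169), lost, like Hoxc8, without any 1 of the 4. These genes come from 3 Hox clusters, and in each gene both 1 h libraries lay above both untreated ones.

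Hoxa7 and Hoxb7, from the middle of their clusters and outside both lists, rose too. Hoxc6, whose number within its cluster is lower than theirs, was counted in the posterior list and is among the 5 that rose there. Hoxa7 stood at 15.5 and 14.2 TPM at 1 h, against 2.31 and 2.79 TPM untreated (log2 fold change 2.16, limma adjusted p = 0.0169, lost without 6 of the 12). Hoxb7 stood at 10.5 and 11.9 TPM at 1 h, against 2.66 and 2.08 TPM untreated (1.86, adjusted p = 0.0286), and Hoxb8 at 28.1 and 28.1 TPM against 10.1 and 12.9 TPM (1.23, adjusted p = 0.0452). Hoxb7 and Hoxb8 lost their calls whichever library was left out, with adjusted p up to 0.241 and 0.378. Hoxc9 and Hoxd10 passed with the block only, Hoxc9 at 4.87 and 5.46 TPM at 1 h against 0.04 in both untreated libraries, and Hoxd10 at 1.59 and 3.60 TPM against 0.03 and 0.10 TPM. Both genes thus stood near 0 in the untreated libraries.

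The level before irradiation moved with this result. The TPM of the posterior Hox list summed to 138 and 178 in the 1 h libraries labelled knockout, against 25.5 and 34.9 in the untreated ones. In the libraries labelled wild type it summed to 157 and 176 at 1 h, against 122 and 98.5 untreated, and at 3 h the libraries labelled knockout held 44.3 and 47.2. The untreated libraries labelled knockout were thus the lowest in the series, below the untreated libraries of the other label, while the 1 h sums of the 2 labels overlapped. A difference between embryos that was there before irradiation and a change after it cannot be told apart. Of the 13 posterior genes 6 were called lower at 3 h than at 1 h, Hoxb8 among them (6.01 and 5.59 TPM at 3 h). Among all genes tested 4.31% were called lower, and the 1 h libraries serve both comparisons.

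**Figure D3:**
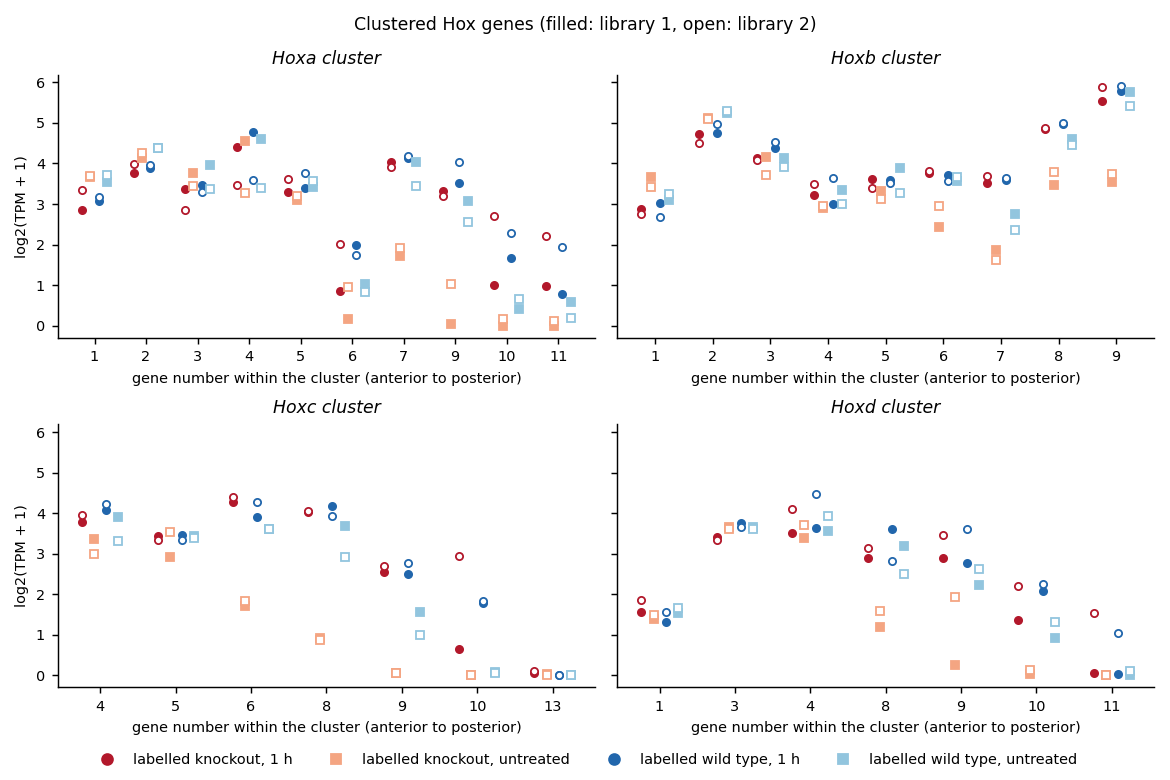
Level in log2(TPM + 1) of each tested Hox gene, by its number within the cluster (anterior to posterior), in the 1 h (circles) and untreated (squares) libraries labelled knockout (red and orange) and wild type (dark and light blue), filled for number 1 and open for number 2. From Hoxb6 to Hoxb9 and from Hoxc6 to Hoxc9 the untreated libraries labelled knockout lie below the other 3 groups, while the 1 h libraries of both labels lie close together, as for Hoxc8 at 15.4 and 15.7 TPM (knockout).

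Of the transcription factors of the forebrain and midbrain Otx2 fell at 1 h. Of 20 listed genes it was the 1 that fell (5 with the block), none rose and none had a positive fold change (median -0.72). Among all genes tested 0.0193% were called lower (0.663% with the block) and 56.6% had a negative fold change. Under the wild-type label the median of this list was -0.47. Otx2, a homeobox factor needed to form forebrain and midbrain, stood at 19.9 and 22.4 TPM at 1 h, against 47.6 and 53.5 TPM untreated (log2 fold change -1.22, SE 0.15, limma adjusted p = 0.0286, lost without 10 of the 12 libraries in turn). Otx1, its relative, stood at 5.47 and 4.35 TPM at 1 h, against 14.6 and 13.9 TPM untreated, and En1, a factor of the boundary of midbrain and hindbrain, at 4.27 and 2.64 TPM against 11.1 and 9.46 TPM. The groups were apart in all 3 genes. In these whole-embryo libraries, fewer cells of a type and less RNA per cell cannot be told apart. Six3 (-0.79) and Fezf1 (-0.86), factors of the anterior forebrain, also passed with the block only, as did Sox1 (-0.79), a factor of neural progenitors.

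Fzd7, a frizzled receptor for Wnt signals, stood at 32.2 and 34.0 TPM at 1 h, against 83.6 and 68.1 TPM untreated (log2 fold change -1.16, SE 0.14, limma adjusted p = 0.0286, lost whichever of the 12 libraries was left out). Efnb2, a membrane-bound ephrin that guides vessels and neural crest, stood at 25.1 and 26.0 TPM at 1 h, against 55.6 TPM in both untreated libraries (-1.09, SE 0.13, adjusted p = 0.0286, lost without 10 of the 12). Both genes fell to below the level of either untreated library. Of 12 Wnt receptors Fzd7 was the 1 called in either fit (median -0.43), and of 19 ephrins and Eph receptors Efnb2 was (median 0.01). Among all genes tested 0.0193% were called lower (0.663% with the block).

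Genes called lower only with the block had log2 fold changes down to -1.91. Prtg, a cell-surface protein of the neural tube and mesoderm, stood at 43.8 and 45.5 TPM at 1 h, against 144 and 142 TPM untreated (-1.66). Myc, the growth-promoting transcription factor, stood at 28.9 and 15.7 TPM at 1 h, against 86.1 and 50.5 TPM untreated (-1.58), lower in number 2 of each group, and Mycn, its paralog in neural progenitors, at 32.2 and 39.3 TPM against 80.4 and 90.6 TPM (-1.24). Sp5, a target of Wnt signals, stood at 2.89 TPM in both 1 h libraries, against 12.8 and 9.24 TPM untreated (-1.61). Each of these genes kept its groups apart, which was a condition for naming genes by size of fold change. The others included Nr6a1, an orphan nuclear receptor of early embryos (-1.33), Lin28a, an RNA-binding protein that blocks let-7 maturation (-0.86), Fst, the activin antagonist follistatin (-1.38), and the glucose transporter gene Slc2a3 (-1.28).

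Lists of signalling pathways of the embryo held at most 1 call each, none of them higher. With the block 0.663% of all genes tested were called lower and 0.251% higher, and the lists were not tested as sets. Dusp6, a phosphatase that FGF signals induce against ERK, stood at 18.9 and 26.6 TPM at 1 h, against 35.0 and 62.2 TPM untreated, and passed with the block only (log2 fold change -1.02). It was the 1 of 11 FGF feedback targets called in either fit (median -0.50). Gli2, the hedgehog effector, was at 17.6 and 15.1 TPM against 41.6 and 29.6 TPM (-1.06), the 1 of 12 hedgehog genes (median -0.40), and Jag1, a Notch ligand, was at 8.92 and 8.31 TPM against 17.6 and 18.3 TPM (-0.98), the 1 of 17 Notch pathway genes (median -0.06). Of 12 neural crest markers Sox9 (15.9 and 10.9 TPM at 1 h, against 34.5 and 27.7 TPM untreated) and Tfap2a (12.8 and 5.94 TPM against 25.9 and 17.3 TPM) passed with the block, with a list median of -0.69. Sox9, Tfap2a, Gli2 and Jag1 had their groups apart, and Dusp6 did too, with the 1 h library numbered 2 the nearer to the untreated ones.

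**Figure D4:**
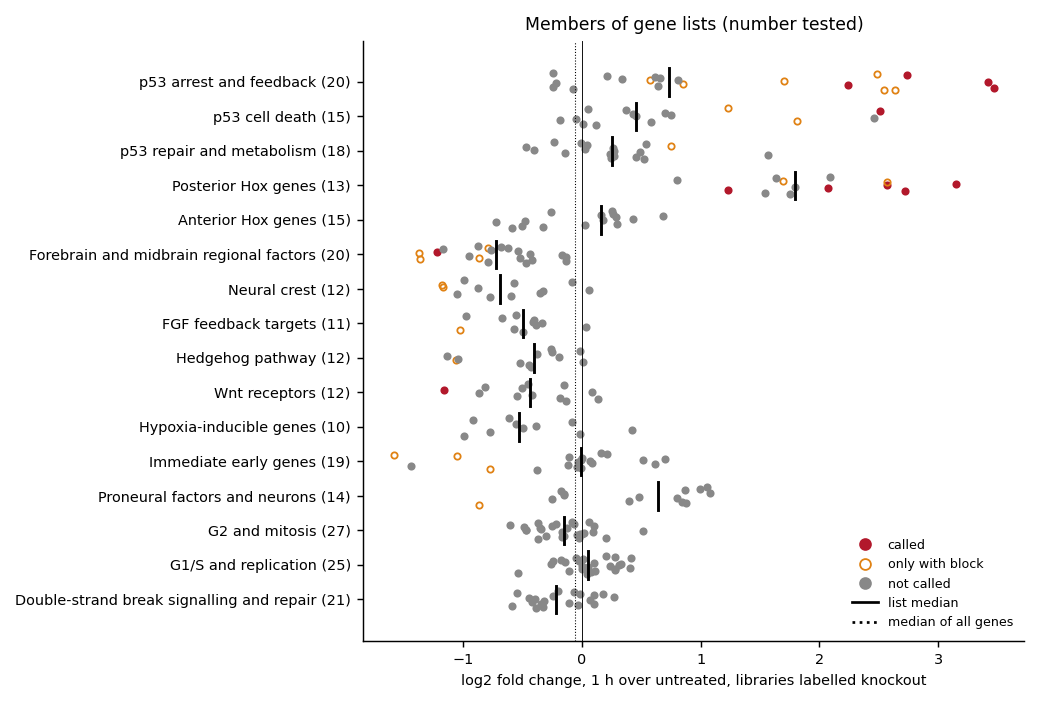
Log2 fold change, 1 h over untreated in libraries labelled knockout, of each tested member of 16 gene lists, with the number tested in brackets. Red points were called without the block, orange rings with it only, grey points in neither fit. Black bars are list medians, and the dotted line is the median of all genes tested (-0.06). The medians of the p53 and posterior Hox lists lie to the right, up to 1.79, and that of forebrain and midbrain factors lies to the left at -0.72. Medians of other lists lie on either side as well, with neural crest and hypoxia-inducible genes among those to the left.

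The lists of mitosis, replication and break repair held no call at 1 h, which, with 0.251% of all genes called higher and 0.663% lower with the block, is no result about the lists. None of 27 genes of G2 and mitosis was called in either fit (median log2 fold change -0.15); Plk1, the mitotic kinase, stood at 124 and 113 TPM at 1 h, against 171 and 190.0 TPM untreated (-0.60). Of these 27 genes 10 were called lower at 3 h than at 1 h, against 4.31% of all genes tested. None of 25 genes of G1/S and replication (median 0.05) and none of 21 genes of double-strand break signalling and repair (median -0.20) was called in either fit. Of 19 immediate early genes, which growth factors and stress switch on without new protein, none was called higher. With the block 3 (Myc, Klf6 and Ccn1) were called lower, and the list median was -0.01. At 3 h 14 of the 19 were called higher than at 1 h, against 6.89% of all genes tested. Ccn1, a matrix protein gene, held 24.3 and 28.0 TPM untreated, 15.5 and 14.4 TPM after 1 h and 69.3 and 71.6 TPM after 3 h. It was below the untreated libraries at 1 h and above them at 3 h.

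Whether the response differed between the labels was tested with the difference of the 2 responses. In the libraries labelled wild type limma called 0 genes at 1 h in either direction (0% higher and 0% lower), also with the block, with 618 genes at an unadjusted p under 0.05. The difference of responses was called for 1 gene without the block, Cdkn1a (0.00644% of genes tested, none lower), at 3.31 on the log2 scale (adjusted p = 0.013). Cdkn1a stood at 6.01 and 8.36 TPM in the 1 h libraries labelled wild type, against 5.91 and 6.6 TPM in their untreated ones. With the block 8 genes (0.0515%) were called, none lower: Cdkn1a, Sesn2 (2.76), Trp53inp1 (2.68), Btg2 (2.41), Hoxc6 (2.10), Slc19a2 (2.00), Plk2 (1.83) and Ddias (1.67). As Trp53 and its targets go against the labels at 1 h, an exchange of all labels would turn the sign of each of these differences. Whether one took place was not tested, and in Trp53 the untreated libraries of the 2 labels overlapped. No other gene was shown to respond differently under the labels, and the call of Cdkn1a was lost without any 1 of the 4 libraries of this comparison, among others.

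The genes called with the block were grouped by list and direction, and their values under the other label are set beside them. The 14 p53 targets called higher had a median log2 fold change of 2.36 in the libraries labelled knockout and of -0.003 in those labelled wild type, where they lay between -0.54 and 0.33. The 10 Hox genes had medians of 2.12 under the knockout label and 0.62 under the wild-type label, where all were positive (0.02 to 1.35). For the 15 other genes called higher the medians were 1.29 and 0.35, with -0.13 to 1.22 under the wild-type label. The ranges of the groups called higher thus overlapped there. The 103 genes called lower had medians of -0.93 and -0.53, and all 103 were negative under the wild-type label too, where 52.9% of all genes tested were. Of the 103 genes 90 lay lower without overlap at 1 h under that label, against 16.0% of all genes tested. As the wild-type label had 0 calls, these are values side by side and no test. Otx2, for example, was at -0.71, Fzd7 at -0.80 and Efnb2 at -0.74 there. Of the 103 genes 28 were called higher and 9 lower at 3 h than at 1 h in the libraries labelled knockout. Among all genes tested 6.89% were called higher and 4.31% lower. The 103 genes were chosen for low 1 h values and the same 1 h libraries serve both comparisons, so these counts are no test.

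**Figure D5:**
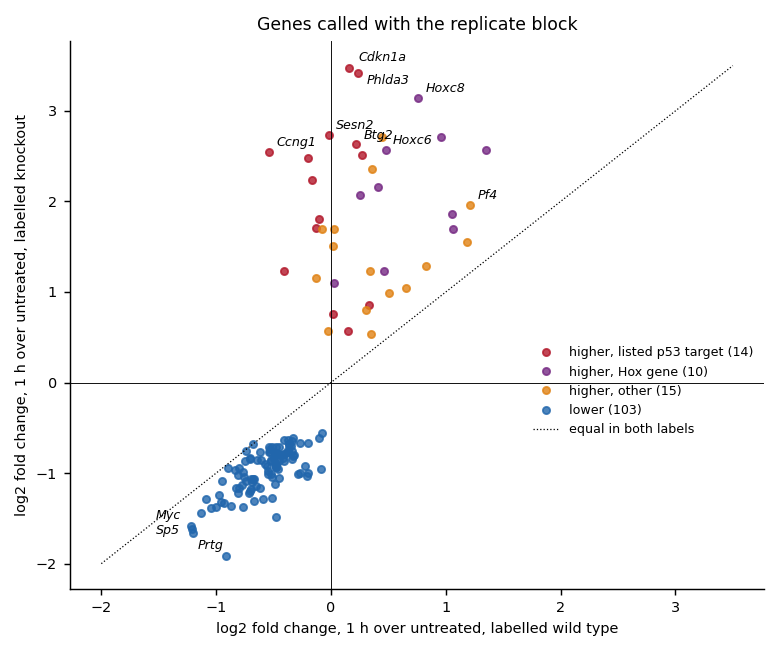
Log2 fold change at 1 h over untreated in the libraries labelled knockout (y axis) and in those labelled wild type (x axis) for the 142 genes called with the replicate block, coloured as listed p53 targets, Hox genes, other genes called higher, and genes called lower. The p53 targets stand near 0 on the x axis with a median of -0.003, whereas the genes called lower are below 0 on both axes, with medians of -0.93 (knockout) and -0.53 (wild type).

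Gene length and promoter letters are given as a description. The median span of a gene in the GENCODE M21 annotation was 8.0 kb for the 39 called higher with the block and 39.7 kb for the 103 called lower, against 19.8 kb for all genes tested. Their longest transcripts had medians of 2.37 kb and 4.94 kb, against 2.84 kb. Promoter windows were at hand for 28 of the 39, and 9 of these (32.1%) held a p53 half-site, Cdkn1a, Ccng1, Mdm2, Inka2 and Ppm1d among them; for the genes called lower it was 7 of 77 (9.09%), and for all genes tested 890 of 10873 (8.19%). The half-site consensus reads the same on both strands. A full site, meaning 2 half-sites at most 13 bases apart, was in 1 of the 28 (Cdkn1a, 3.57%) and in 5 of the 10873 (0.046%). As 11 of the 39 have no window here, a comparison of these shares is void, and the counts describe the windows found.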

How the data were processed

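RNA-seq of polyadenylated transcripts from whole embryos was used, with 2 libraries in each of 6 groups by labelled genotype and time. The authors deposited TPM, scaled within each library (columns sum to between 999999.1 and 1000000.8), for 53647 gene IDs. Depth is therefore unknown. Per the submitters' processing notes the build was GRCm39 (mm39) and the tools included RSEM 1.3.3, STAR 2.7.3a, DESeq2 1.42.1, HTSeq 0.12.3 and R 4.3.3, with no role given. Annotation, strand setting and read filters: not given in the sources used here. Values of paralogs and overlapping genes are therefore uncertain.

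Symbols were matched by gene ID for 52093 IDs (97.1%), and 42 tested genes have none. Values of log2(TPM + 1), a pseudocount of 1, entered limma 3.58.1 (R 4.3.3) from all 12 libraries, with 1 mean per group and a trended prior variance (6 residual degrees of freedom). The filter kept the 15535 genes that reached a TPM of 1 in 2 libraries or more. Tests were two-sided with Benjamini-Hochberg adjustment over all of them, and an adjusted p under 0.05 made a call. Scripts were tested on simulated data. Figures were drawn with matplotlib 3.10.9 in Python 3.11.15. RefSeq promoter windows (GRCm38.p6) were searched for the p53 half-site, and gene lengths come from GENCODE.

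Deviations from the group means were correlated between same-numbered libraries in all 15 pairs of groups (across genes 0.327 to 0.796, and 0.418 for the groups compared here). The number was therefore fitted as a block beside the fit without it (5 residual degrees of freedom). The labels do not say what libraries of a number share, and only 16 of the 142 genes called with the block were called without it. On the first principal component numbers 1 and 2 labelled knockout stood at -21.2 and 66.4 at 1 h, against -25.8 and 9.44 untreated. The difference by number was thus unlike between the groups, while the block takes it as equal. Libraries of a group correlated at 0.935 to 0.974 and shared at most 1.10% of values exactly, so each was kept as its own sample.

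Alternatives were a pseudocount of 0.1, no filter, median-of-ratios size factors, quantile normalization, no variance trend, the compared groups alone, TPM rescaled without ribosomal protein and mitochondrial genes, each library left out in turn and, chosen after seeing the data, the libraries numbered 2 left out by time. The members and gene lists were chosen with earlier results of these data known. Named were Trp53, the title genes and every gene called without the block. Up to 12 higher and 20 lower genes called only with the block were named by size of fold change. These had to have groups that did not overlap and a symbol that was not clone-like. From each list came the members called in either fit (up to 10), or else the 2 with the smallest p. Eda2r, Ddit4, Fas, Tap1, Bax, Polk and Lin28a were named after their values were seen, as were list members named without values. Results that need 2 of the list members are not reported here.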

Additional observations from a re-analysis of the deposited data

Results flagged for a closer look

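The response at 1 h differed between the labels for Cdkn1a, by 3.31 on the log2 scale (knockout minus wild type) in the fit without a block. With the replicate block the same test also called Sesn2 at 2.76, Trp53inp1 at 2.68, Btg2 at 2.41, Hoxc6 at 2.10, Slc19a2 at 2, Plk2 at 1.83 and Ddias at 1.67. All 8 differences are positive. Trp53 transcript and its targets go against the genotype labels at 1 h, and an exchange of all labels, which was not tested, would make all 8 negative. In the untreated libraries Trp53 was split within each label, at 265 and 79.1 TPM (knockout) and 114 and 211 TPM (wild type). The cause of that split was not tested. For Hoxc6 the levels were 18.5 and 20.1 TPM in the 1 h libraries labelled knockout, against 2.26 and 2.56 TPM in the untreated ones, and 13.9 and 18.4 TPM in the 1 h libraries labelled wild type, against 11.2 and 11.3 TPM untreated. The 1 h levels of Hoxc6 were thus near each other and the untreated ones were not.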

How the results depend on the processing

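The 13 higher and 3 lower calls became 39 and 103 with the replicate block, and 0 and 0 with only the groups compared in the fit. Lower calls were 5 with no filter, 7 with size factors and 5 without a variance trend. Of the 16 genes called as deposited, 14 were called with size factors, Fzd7 and Efnb2 being lost. With quantile normalization 11 were called, and Otx2, Fzd7 and Efnb2 were all lost. The share of higher calls was 81.2% as deposited, 70.8% with size factors, 76.5% with a pseudocount of 0.1, 68.8% with no filter, 88.2% with quantile normalization and 27.5% with the block. For the difference of the responses (1 higher, 0 lower), the counts were 3 and 1 with no filter, 3 higher with size factors, 3 higher with quantile normalization, 8 higher with the block and 0 with the compared groups alone. Without any 1 library the counts were 2 to 11 higher and 0 to 4 lower, and for the difference 0 to 3 higher and 0 to 1 lower. In settings chosen after seeing the data, 5 genes were called higher and 0 lower without both 1 h libraries numbered 2, 0 and 0 without both untreated libraries numbered 2, and 0 and 0 without all 4, with 0 calls for the difference in each. TPM rescaled without ribosomal protein and mitochondrial genes gave 16 calls, the same 16 genes. That setting was left out of the recomputed gene values that follow. Of 191 other values, recomputed 4432 times over the alternatives, 13 recomputed values changed sign. None did under size factors or quantile normalization, and the cause of the 13 changes of sign was not tested. The 13 values belong to 5 genes, none of them called, whose log2 fold changes without any 1 library ranged from -0.211 to 1.52 for Trp53, -0.0350 to 0.0735 for Fbxw7, -0.307 to 1.36 for Trf, -0.478 to 2.98 for Afp and -0.0103 to 0.499 for Plac1. Without both 1 h libraries numbered 2, Afp was at -0.347 and Plac1 at -0.00631. Without both untreated libraries numbered 2, Trp53 was at -0.211 and Fbxw7 at -0.0322. Without all 4, Trp53 was at -0.0838. TPM keeps no depth, so counting error limits genes with low values by an unknown amount.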

Other observations

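Several gene groups of the embryos labelled knockout had no call. With 0.251% of all genes called higher and 0.663% lower with the block, that is no result about these gene groups. Of 80 cytosolic ribosomal protein genes none was called in either fit, 76 had a positive log2 fold change and the median was 0.41, and these genes took 19.4% of TPM in the 1 h library numbered 2. Of 11 primitive erythroid genes none was called, and their TPM summed to 5840 and 10460 at 1 h, against 2333 and 6655 untreated. The embryonic globin gene Hbb-y stood at 981 and 3237 TPM at 1 h, against 248 and 1531 TPM untreated. Of 11 visceral endoderm genes none was called, with sums of 35.3 and 264 TPM at 1 h, against 28.6 and 167 TPM untreated, so the libraries numbered 2 held more of this tissue's transcripts in both groups. Their part in the results above was not tested.

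Of 10 hypoxia-inducible genes none was called (median -0.53); Slc2a1, the glucose transporter GLUT1, stood at 166.3 and 165.9 TPM at 1 h, against 323 and 304 TPM untreated, and Adm, a vasodilator peptide gene, at 1.94 and 1.85 TPM against 4.28 and 5.26 TPM. Pf4, platelet factor 4, passed with the replicate block only, at 4.76 and 11.5 TPM at 1 h, against 0.56 and 2.04 TPM untreated.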
